A study of Homo sapiens with 9 samples.

Results

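The gene levels of untreated A375 cells were described from 3 of the 9 RNA-seq libraries of a study of drug-treated melanoma cells. The 3 libraries were chosen by their treatment label, normal culture, and none of their values was set against the 6 libraries of cells given vemurafenib or cisplatin. A375 is an established human melanoma cell line, and every sample of the series carries the genotype label BRAFV600E, an activating mutation of the kinase BRAF. The untreated cells grew in DMEM supplemented with 10% fetal bovine serum, received no drug, and were harvested alongside the treated cells as the negative control. The values therefore describe 1 line in 1 medium, and a label gives skin as the tissue. The sample records do not say whether the 3 replicates were separate cultures, so the spread between them may be technical.

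Melanoma cells descend from melanocytes, pigment cells of neural crest origin. In this lineage SOX10 and PAX3 act upstream of MITF, the transcription factor that drives the pigment genes TYR, TYRP1, DCT, PMEL and MLANA. Melanoma cells are also known to occupy states in which the pigment genes are low and mesenchymal genes such as AXL are high. Mutant BRAF signals through the kinases MEK and ERK without a growth factor, and ERK in turn induces its own inhibitors, the DUSP and SPRY genes.

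Levels are given in TPM, a unit of relative transcript abundance that is corrected for gene length and scaled to the same total in each library, so that genes can be compared with each other. Where 3 values are given, they are those of replicates 1, 2 and 3 in that order, and a mean carries its SD over the 3 libraries (n = 3). A pair of genes counts as separated where the lowest library of the higher gene lay above the highest library of the lower gene. A mean of 1 TPM served as the line between genes with a clear level and genes near the limit of detection. The libraries held 15693404 to 16038475 estimated counts each. A gene with 0 counts in all 3 could still have up to 0.0629 CPM (counts scaled to the library total), the value of 3 counts in the 47693279 of the 3 libraries, and this covers counting error only. In RNA from a whole culture, fewer cells that use a gene and less RNA of it per cell cannot be told apart.

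Of the 18430 genes in the table, 12721 (69%) had a mean of at least 1 TPM, 8909 at least 10 TPM, 1570 at least 100 TPM and 134 at least 1000 TPM. The median level was 8.97 TPM over all genes and 21.3 TPM over the genes at or above 1 TPM. A further 4453 genes had counts but a mean below 1 TPM, and 1256 had 0 counts in every untreated library. The table held no gene without counts in the whole series, so each of these 1256 had at least some reads in a treated library, and genes silent in all 9 libraries were not among them. RNA was concentrated in few genes: 326 genes made up 50% of all TPM, and the 100 most abundant made up 35.8%, 36.1% and 33.3% of TPM in the 3 libraries (35.1% ± 1.5).

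**Figure D1:**
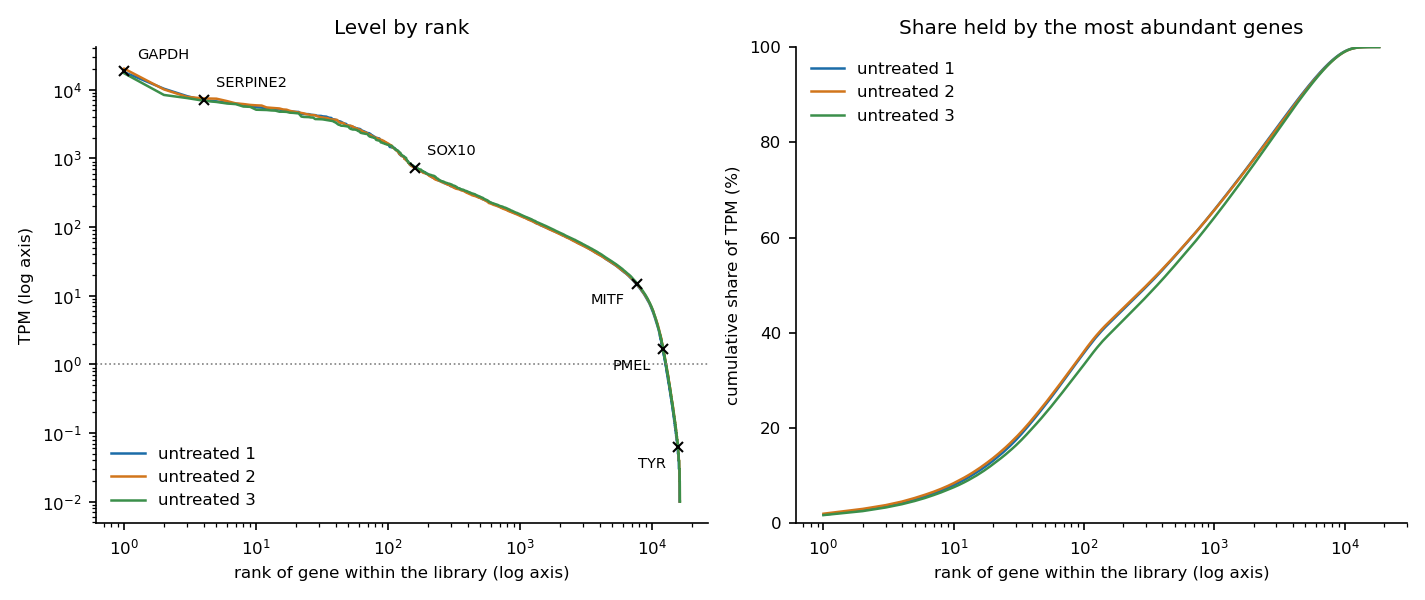
Left, TPM of each gene against its rank within the library, on log axes, with 1 line per untreated library, a dotted line at 1 TPM and crosses at the mean level and rank of 6 named genes. Right, cumulative share of TPM in percent against rank. On the right replicate 3 runs lowest, with 33.3% of TPM in the 100 most abundant genes against 35.8% and 36.1%.

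The most abundant gene was GAPDH, a glycolytic enzyme, at 18076, 20302 and 17367 TPM (18581 ± 1531). Its level was 1.94 ± 0.17 times that of the next gene, RPS27, a protein of the small ribosomal subunit, and the pair were separated. Of the 25 most abundant genes, 18 encode ribosomal proteins (RACK1, a scaffold of the small subunit, counted with them), and 67 of the 80 ribosomal protein genes of the cytosol were among the 100 most abundant. Together these 80 made up 25.7%, 25.4% and 23.1% of TPM, lowest in replicate 3. The remaining 7 of the top 25 were GAPDH and ENO1 of glycolysis, EEF1A1, which brings charged tRNA to the ribosome, and SERPINE2, VIM, GNAS and MTRNR2L2.

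SERPINE2, a secreted inhibitor of serine proteases, ranked 4 of all genes at 6264, 7479 and 7566 TPM (7103 ± 728) and was lowest in replicate 1. VIM, the intermediate filament protein of mesenchymal cells, ranked 9 at 5387, 6016 and 5638 TPM (5681 ± 317). GNAS, the alpha subunit of the stimulatory G protein, ranked 23 at 4446 ± 299 TPM. With MTRNR2L2 these were the genes among the top 25 outside translation and glycolysis. MTRNR2L2 stood at 5004 ± 518 TPM and its relative MTRNR2L8, chosen after its values were seen, at 1573 ± 241 TPM. Both are nuclear copies of mitochondrial ribosomal RNA, so reads of that RNA and of the copies cannot be told apart, and the values are uncertain. Below the first 25, the genes with the highest levels that serve neither the ribosome nor glycolysis included S100A6, a calcium-binding protein, at 3954 ± 217 TPM, TIMP1, an inhibitor of matrix metalloproteases, at 3179 ± 501 TPM, and CD74, the class II invariant chain, at 2942 ± 85.9 TPM.

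Messenger RNAs of ribosomal proteins and translation factors are known to begin with a C followed by an unbroken run of pyrimidines, the start through which mTOR regulates their translation. The bases around the start site are shown because many, though not all, genes of the most abundant class of RNA in these cells carry this feature. Of the 25 most abundant genes, 16 have a single start site in the RefSeq promoter table (GRCh38.p14), and 12 of them, 11 ribosomal protein genes and EEF1A1, begin with a C and at least 4 further C or T. GAPDH, VIM, ENO1 and RPS28 do not. Over all 20600 start sites of the table's genes the share was 4.74%, and over the 79 start sites of 64 ribosomal protein genes it was 60.8%. Each line gives 15 bases before and 15 from the start site on the coding strand, with the pyrimidine start in capitals.
RPS27: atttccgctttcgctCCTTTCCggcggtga
RPS6: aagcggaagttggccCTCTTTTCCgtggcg
EEF1A1: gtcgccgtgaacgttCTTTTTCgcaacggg
RPLP1: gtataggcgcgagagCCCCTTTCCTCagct
RPL26: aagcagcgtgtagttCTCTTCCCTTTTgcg
GAPDH: agcgggtgcatccctgtccggatgctgcgc
VIM: gtgcaatcgtgatctgggaggcccacgtat
The printed stretch of RPS27 is at chr1:153990747-153990776 (plus strand), that of RPS6 is at chr9:19380222-19380251 (minus strand), that of EEF1A1 is at chr6:73521018-73521047 (minus strand), that of RPLP1 is at chr15:69452803-69452832 (plus strand), that of RPL26 is at chr17:8383179-8383208 (minus strand), that of GAPDH is at chr12:6535249-6535278 (plus strand) and that of VIM is at chr10:17228226-17228255 (plus strand). These letters describe the annotated start sites; start sites were not measured in these libraries.

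Of the transcription factors of the melanocyte lineage SOX10 was high, MITF and PAX3 were much lower, and the pigment genes were low. SOX10, which specifies neural crest derivatives, stood at 764, 731 and 696 TPM (730.4 ± 34.4), rank 159 of all genes. MITF was at 15.5, 14.5 and 15 TPM (15 ± 0.47) and PAX3 at 17, 14.6 and 16 TPM (15.9 ± 1.21). SOX10 was thus 48.7 ± 2.06 times as high as MITF in TPM, and PAX3 and MITF were not separated. Of the 16 pigment cell transcription factors listed, 12 reached 1 TPM (75%, against 69% of all genes) and 2, SOX10 and SOX5, reached 100 TPM. The median of the 16 was 7.54 TPM, against 8.97 over all genes, so as a group they were not high. SOX5 was at 108 ± 3.83 TPM, TFE3, a relative of MITF, at 66.7 ± 4.07, TFAP2B at 64.8 ± 15.9 and LEF1, an effector of Wnt signalling, at 53.4 ± 5.9. FOXD3, a neural crest factor, had 7.81 ± 2.63 TPM. The 4 below 1 TPM were SOX9 (0.54 ± 0.212 TPM), TFEC, MYCN and IRF4, and IRF4, a factor of mature melanocytes and lymphocytes, had 1 count in all.

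Genes of the pigment itself were low, and of those given here PMEL and OCA2 exceeded 1 TPM. PMEL, the fibril protein of the melanosome, had 1.55, 1.81 and 1.65 TPM (1.67 ± 0.131), and OCA2, a melanosomal transporter, 1.53, 1.49 and 1.01 TPM (1.34 ± 0.289). SLC45A2 had 0.867 ± 0.0961 TPM, TYRP1 0.317 ± 0.188 TPM and MLANA 0.267 ± 0.153 TPM. TYR, the rate-limiting enzyme of melanin synthesis, had 3 counts over the 3 libraries and DCT 4. The cation exchanger SLC24A5 and the channel TRPM1 had 0 counts in every library. Of the 10 melanocyte markers listed, 5 (50%, against 69% of all genes) were at or above 1 TPM: SOX10, PAX3, MITF, PMEL and OCA2. All 10 together summed to 731 to 802 TPM, nearly all of it SOX10.

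Several other genes of the melanosome and of the lineage were well above the pigment genes. The list, which includes the pigment genes, held 27 measured genes. Of these, 19 (70.4%, against 69% of all genes) reached 1 TPM, 14 reached 10 and 3 reached 100. RAB27A (5.06 ± 0.332 TPM), MLPH (3.51 ± 0.624) and CAPN3 (1.35 ± 0.133) lay closer to PMEL. CD63, a tetraspanin of late endosomes and melanosomes, had 829, 736 and 734 TPM (766 ± 54.6), and S100A1 had 776, 727 and 651 TPM (718 ± 62.8). The latter pair were not separated. S100B, the S100 protein used as a melanoma marker, had 30.6 ± 2.17 TPM, so that S100A1 was 23.5 ± 2.38 times as high. GPNMB, a transmembrane glycoprotein related to PMEL, had 54.8 ± 4.27 TPM, RAB38, a GTPase of melanosome transport, 46.1 ± 1.51, EDNRB, the endothelin receptor of the lineage, 37.2 ± 5.71, and MC1R, the receptor of melanocyte-stimulating hormone, 21.8 ± 1.4. KIT was not analysed here.

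The hexamer CATGTG is a form of the E-box bound by MITF. It was searched on both strands of the 250 bases before each start site in the RefSeq promoter table. It lay in 7.31% of the 20600 windows of the table's genes and in 13 of 37 windows (35.1%) of 20 melanosome and pigment genes. Of these 20 genes, 12 held it in at least 1 window and 6 of the 12 were at or above 1 TPM (CD63, GPNMB, BCL2A1, EDNRB, MC1R and OCA2), while of the 8 without it 7 were. TYR and TYRP1 are shown because each holds it at 2 places and had almost no RNA. The 160 bases before the start site are given on the coding strand, with the hexamer or its reverse complement in capitals.
TYR: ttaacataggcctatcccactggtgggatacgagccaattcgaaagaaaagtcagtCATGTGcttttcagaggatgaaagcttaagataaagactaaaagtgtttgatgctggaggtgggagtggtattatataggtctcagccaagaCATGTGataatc
TYRP1: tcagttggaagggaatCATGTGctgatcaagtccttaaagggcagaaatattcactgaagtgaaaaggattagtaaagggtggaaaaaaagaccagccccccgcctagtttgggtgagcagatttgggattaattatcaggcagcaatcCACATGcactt
The printed stretch of TYR is at chr11:89177715-89177874 (plus strand) and that of TYRP1 is at chr9:12693225-12693384 (plus strand). The matches began 104 and 12 bases before the start of TYR and 144 and 11 bases before that of TYRP1, the last of them on the other strand. A match is a description of the letters and does not show that MITF was bound there.

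Markers of other cell types were checked in the same way, beside the 69% of all genes that reached 1 TPM. Of 13 leukocyte markers 2 reached 1 TPM, CD68 (112 ± 21.8 TPM), a lysosomal protein also made by other cells, and LYZ (10.7 ± 1.99 TPM), while PTPRC, present on all leukocytes, had 0 counts, and the 13 summed to 102 to 138 TPM. Of 10 fibroblast markers 4 reached 1 TPM, led by PDGFRB at 4.83 ± 0.22, THY1 had 0 counts and the sum was 11.7 to 15.3 TPM. Of 9 endothelial markers 4 reached 1 TPM, led by EGFL7 at 23.9 ± 4.36, CDH5, the cadherin that defines endothelium, had 0 counts and the sum was 33 to 40.9 TPM. Of 10 keratinocyte and epithelial markers 4 reached 1 TPM, led by KRT10 at 14.2 ± 2.47, with KRT5 at 1 count and a sum of 23.9 to 26.1 TPM. No erythroid marker of 5 did (sum 0.51 to 1.55 TPM), and HBB had 0 counts. Schwann cell and neural markers had a higher sum, 554 to 655 TPM, but only 6 of 10 (60%) reached 1 TPM. Their median was 5.95 TPM, against 8.97 over all genes. Most of the sum came from TUBB3, a tubulin of neurons, at 358 ± 39.8, and PMP22, of myelin, at 152 ± 7.29. SYP had 1.07 ± 0.243 TPM, GFAP 0.2 ± 0.0173, MBP 3 counts and ELAVL4 0 counts.

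Most genes listed for the dedifferentiated and mesenchymal state were at or above 1 TPM. Of 35 measured, 34 (97.1%, against 69% of all genes) were so, and 12 were at or above 100. Their median was 67.4 TPM, against 8.97 over all genes and 21.3 over genes at or above 1 TPM. The list was written by hand with earlier results of these data known. Its levels therefore describe the listed genes and are no test of a state. VIM led at 5681 TPM, followed by SPARC, a matrix glycoprotein, at 1857, 1995 and 1950.2 TPM (1934 ± 70.3). TNC, the matrix protein tenascin C, had 564, 761 and 691 TPM (672 ± 99.9), TGFBI 492 ± 19.9 and CD44, the hyaluronan receptor, 437 ± 46.1. The first 3 of these were separated from each other. The coactivator WWTR1 (TAZ) had 339.8 ± 7.26 TPM, and its relative YAP1 was 0.227 ± 0.0159 times as high.

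Receptors used to tell melanoma states apart did not share a level. AXL had 96.1, 98.7 and 104 TPM (99.6 ± 4.01), EGFR 6.95, 9.74 and 10.9 TPM (9.21 ± 2.04) and NGFR, the marker of the neural crest-like state, 3.92, 5.35 and 6.57 TPM (5.28 ± 1.33). The 3 were separated from AXL down. WNT5A, a ligand of invasive melanoma cells, stood at 67.4 ± 14.4 TPM. Among the transcription factors of mesenchymal transition SNAI1 was highest at 45.3, 45 and 44.7 TPM (45 ± 0.275), then ZEB1 at 21.4 ± 2.52. TWIST1 at 10.9 ± 0.945 and TWIST2 at 10.8 ± 0.367 followed and overlapped. Their relatives ZEB2 and SNAI2, listed with the pigment cell factors, were lower at 6.27 ± 0.715 and 5.19 ± 1.2 TPM. Of the cadherins, CDH2 (N-cadherin) had 65.7, 76.4 and 82.8 TPM (75 ± 8.63) and CDH1 (E-cadherin) 0 counts.

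**Figure D2:**
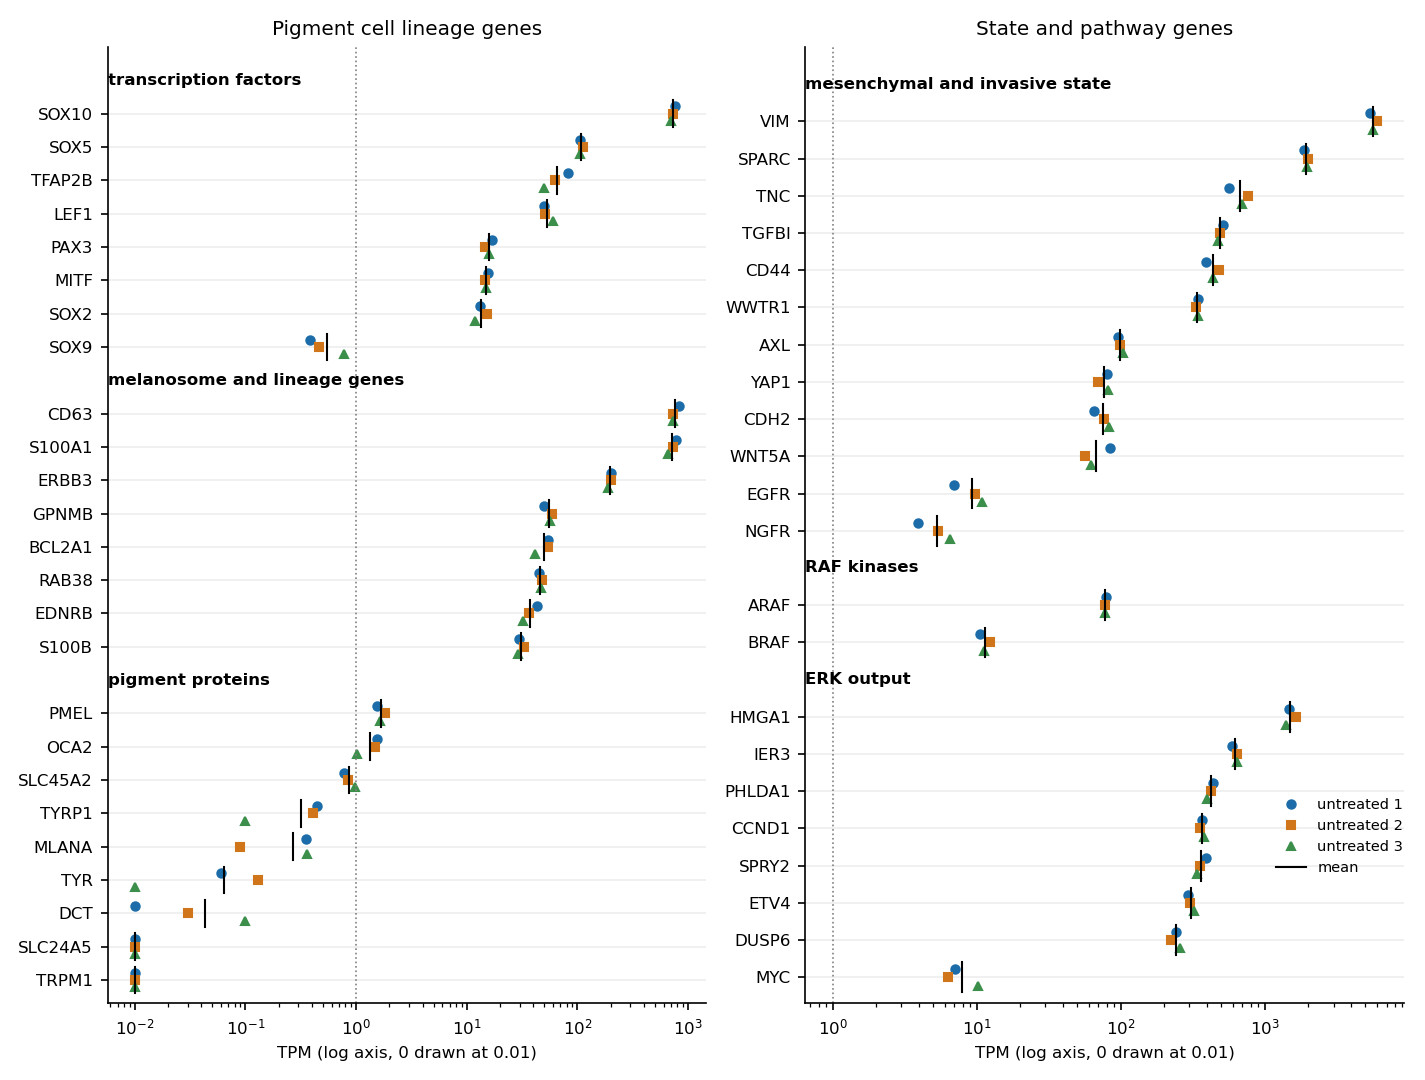
TPM on a log axis for genes of the pigment cell lineage (left) and for state, RAF kinase and ERK output genes (right). Each symbol is 1 untreated library, the black tick is the mean, the dotted line marks 1 TPM and 0 is drawn at 0.01. SOX10, CD63 and S100A1 lie highest in the plot of lineage genes (means 730.4, 766 and 718 TPM), while the pigment proteins lie at 1.67 TPM and below.

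BRAF, the mutated kinase, was less abundant in RNA than ARAF. BRAF had 10.6, 12.4 and 11.2 TPM (11.4 ± 0.944) and ARAF 78.8, 77.3 and 77.5 TPM (77.9 ± 0.848). ARAF was 6.87 ± 0.619 times as high as BRAF, and the pair were separated. The RNA level says nothing of kinase activity. NRAS and HRAS had 52.2 ± 1.87 and 51.5 ± 2.1 TPM. The MEK genes MAP2K2 and MAP2K1 were not separated (104 ± 6.01 and 98.1 ± 7.39 TPM). The ERK gene MAPK3 had 97.4 ± 8.52 TPM. SHC1, an adaptor, led the list of 25 pathway genes at 249 ± 18.2 TPM, and PEBP1, a RAF inhibitor, followed at 162 ± 10.2. All but KSR2, a scaffold of neural tissue, at 0.477 ± 0.172 TPM, were at or above 1 TPM (96%, against 69% of all genes).

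All 32 listed ERK output genes were at or above 1 TPM, against 69% of all genes, and 16 were at or above 100. Their median was 112 TPM. This list, too, was written by hand with earlier results of these data known. HMGA1, a chromatin protein, was highest at 1466, 1656 and 1399.8 TPM (1507 ± 133), followed by IER3 at 624 ± 23.8 and PHLDA1 at 420.1 ± 19.3. CCND1, the cyclin that opens G1, had 367, 354 and 378 TPM (367 ± 12). Feedback inhibitors were among the high genes: SPRY2 had 393, 354 and 339 TPM (362 ± 27.9), DUSP4 246 ± 25.9, DUSP6 242, 224 and 256 TPM (241 ± 16.3) and SPRY4 135 ± 6.79. Of the ETS factors, ETV4 had 306 ± 14.6 TPM, ETV5 59.6 ± 1.04 and ETV1 47.1 ± 0.981. MYC, at 7.12, 6.36 and 10.1 TPM (7.87 ± 2), was below the median of all genes.

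The untreated cells expressed a small set of secreted cytokines at high levels. Of 61 cytokines listed, 11 had no value. Of the 50 measured 27 (54%, against 69% of all genes) reached 1 TPM, 12 reached 10 and 3 reached 100. MIF, which is made by most cells, led at 1268, 1244 and 1330.2 TPM (1281 ± 44.6). IL1A, the interleukin-1 that is active in its precursor form, had 146, 192 and 113 TPM (150.3 ± 39.5) and IL1B 46, 48.9 and 25.7 TPM (40.2 ± 12.7). IL1A was 3.83 ± 0.627 times as high as IL1B. LIF had 145, 142 and 129 TPM (138 ± 8.74) and IL11 94.7, 99.1 and 84.4 TPM (92.7 ± 7.56), both of the interleukin-6 family, while IL6 itself had 0.7, 0.76 and 1.34 TPM (0.933 ± 0.354), below 1 TPM on average and in 2 of the 3 libraries. CSF2 (GM-CSF) had 46.4, 116 and 77.4 TPM (80 ± 35), highest in replicate 2. EBI3, a subunit shared by heterodimeric interleukins, had 65 ± 16.2 TPM and IL24 44.1 ± 15.3. TNF had 0.663 ± 0.493 TPM, IL18 0.977 ± 0.808, and IL1RN, the natural antagonist of interleukin-1, 0 counts.

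Among chemokines the neutrophil attractants of chromosome 4 stood apart. CXCL8 had 969, 1283 and 1028 TPM (1093 ± 167), CXCL1 749.8, 1063 and 851 TPM (888 ± 159.9), CXCL3 166, 231 and 162 TPM (186 ± 38.7) and CXCL2 69.8, 139 and 94 TPM (101 ± 35.3). CXCL8 was 1.24 ± 0.0492 times CXCL1 in level, higher in each library, though the ranges over libraries overlapped. CXCL1 was 4.79 ± 0.39 times CXCL3, and CXCL3 1.92 ± 0.393 times CXCL2, both pairs separated. All 4 were highest in replicate 2. Their neighbours CXCL5 and CXCL6, which signal through the same receptors, had 1 count each over the 3 libraries. Of the CC chemokines CCL2, which attracts monocytes, had 30.1 ± 8.85 TPM and CCL20 10.3 ± 1.91. Of 39 chemokines listed, 8 had no value. Of the 31 measured 13 (41.9%, against 69% of all genes) reached 1 TPM and 11 had 0 counts, CXCL12 among them.

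The windows before the start sites of these 6 genes are shown because they share a motif while their RNA levels lie far apart. NF-kB, which drives inflammatory genes, binds sites that the pattern GGNNTTTCC covers in part. The pattern, searched on both strands of the 250 bases before the start, was in 5.79% of the 20600 windows and in all 6 of these genes. CATGTG was in none of the 6. Bases 110 to 41 before the start are given on the coding strand, with matches in capitals.
CXCL8: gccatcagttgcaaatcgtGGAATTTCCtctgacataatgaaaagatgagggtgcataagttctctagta
CXCL1: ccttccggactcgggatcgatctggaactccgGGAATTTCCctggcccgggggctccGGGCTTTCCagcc
CXCL2: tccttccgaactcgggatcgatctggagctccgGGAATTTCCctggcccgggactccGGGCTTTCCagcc
CXCL3: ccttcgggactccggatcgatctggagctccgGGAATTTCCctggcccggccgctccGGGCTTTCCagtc
CXCL5: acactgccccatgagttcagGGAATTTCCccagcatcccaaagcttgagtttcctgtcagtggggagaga
CXCL6: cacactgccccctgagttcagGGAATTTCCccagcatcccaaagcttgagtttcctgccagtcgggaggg
The printed stretch of CXCL8 is at chr4:73740459-73740528 (plus strand), that of CXCL1 is at chr4:73869283-73869352 (plus strand), that of CXCL2 is at chr4:74099236-74099305 (minus strand), that of CXCL3 is at chr4:74038730-74038799 (minus strand), that of CXCL5 is at chr4:73998718-73998787 (minus strand) and that of CXCL6 is at chr4:73836568-73836637 (plus strand). In these bases CXCL1, CXCL2 and CXCL3 held 2 matches each, and CXCL8, CXCL5 and CXCL6 held 1 each. CXCL5 and CXCL6, at 1 count, thus held the same letters as CXCL8 at 1093 TPM. The match is a description of the windows, and binding was not measured.

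Receptors for these ligands were mostly low. CXCR2, which binds the neutrophil attractants, had 0.18, 0.1 and 0.16 TPM (0.147 ± 0.0416) and CXCR1 0 counts. Of 21 chemokine receptors only CCR10, the receptor of CCL28, reached 1 TPM (2.02 ± 0.551), a share of 4.76% against 69% of all genes. CXCR4, the receptor of CXCL12, had 0.08, 0.08 and 1.13 TPM, above 1 TPM in replicate 3 only. IL1R1, the signalling receptor of interleukin-1, had 0.59, 0.89 and 0.87 TPM (0.783 ± 0.168), and its partner IL1RAP 7.43 ± 1.44. For GM-CSF, CSF2RA had 0.883 ± 0.394 TPM and the signalling chain CSF2RB 3 counts in all. The interleukin-6 family differed: its shared chain IL6ST had 66.5, 68.3 and 72.8 TPM (69.2 ± 3.23), OSMR 48.3 ± 7.76, IL11RA 8.55 ± 1.33, LIFR 5.52 ± 0.605 and IL6R 3.23 ± 0.249.

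IL13RA2, the decoy receptor of interleukin-13, was the highest cytokine receptor by far. It had 1739, 1719 and 1711 TPM (1723 ± 14.3), rank 93 of all genes and 43.4 ± 2.31 times the level of its signalling counterpart IL13RA1. The next in order was IFNGR2, the accessory chain of the interferon gamma receptor, at 139.9 ± 8.33 TPM, separated from both neighbours. Of 51 cytokine receptors 32 (62.7%, against 69% of all genes) reached 1 TPM. In the TNF receptor superfamily 19 of 28 (67.9%) did, led by TNFRSF12A at 221 ± 25.4 and TNFRSF1A at 219.8 ± 14.8, which were not separated. The lymphotoxin receptor LTBR had 162 ± 5.35 TPM and TNFRSF10B, a receptor of the death ligand TRAIL, 109 ± 0.767.

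**Figure D3:**
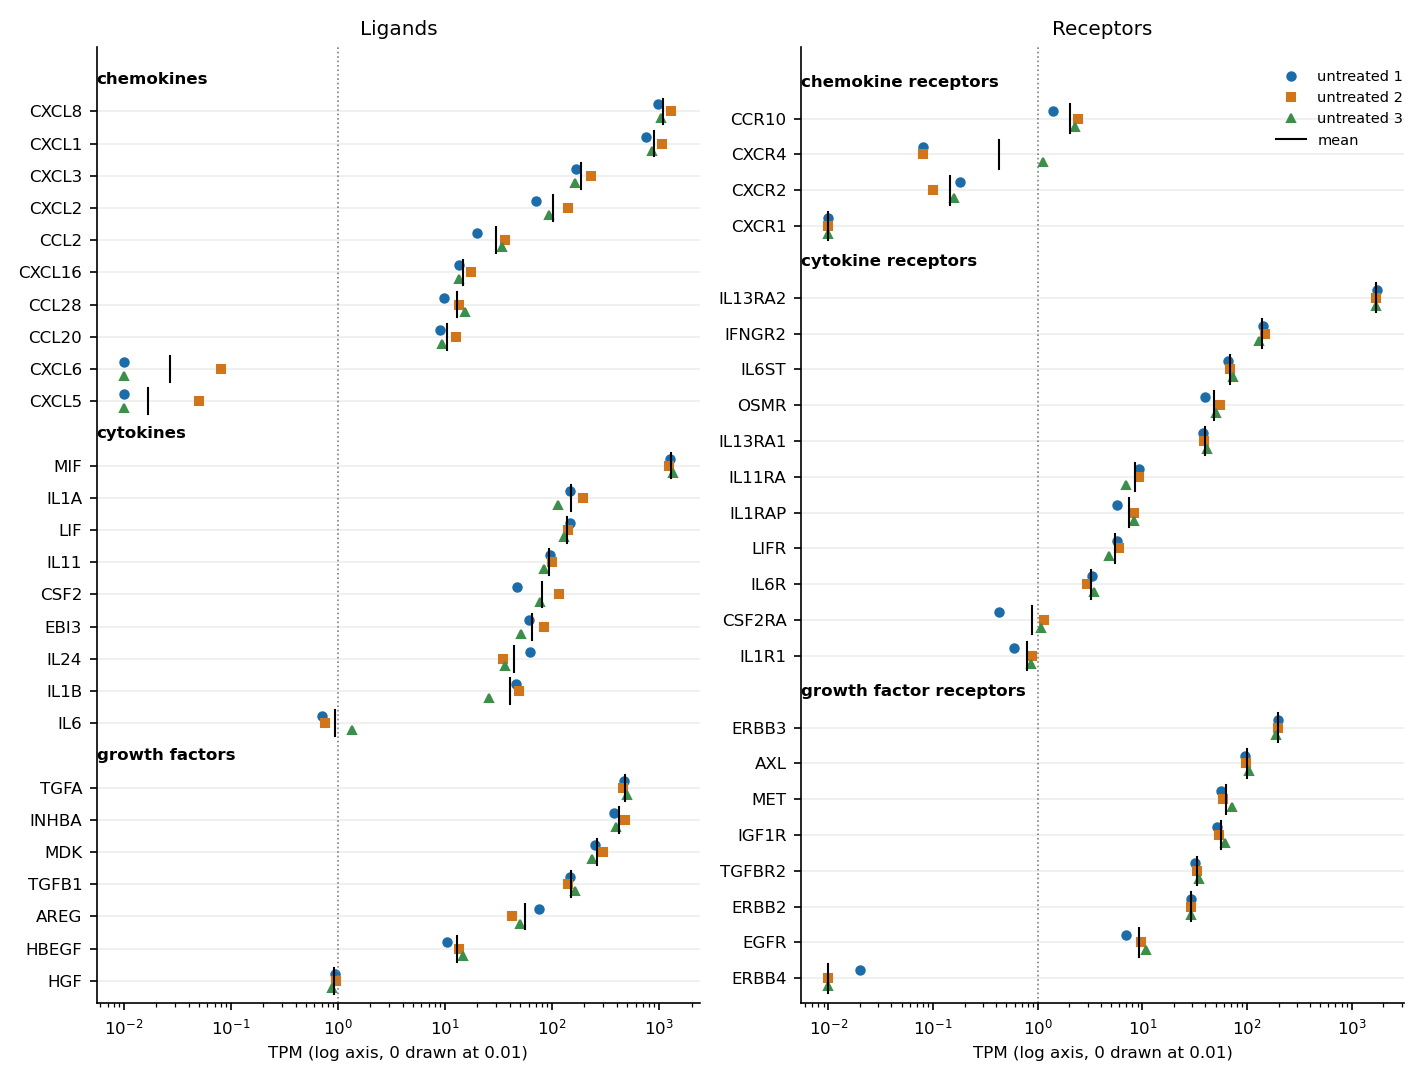
TPM on a log axis for secreted ligands (left) and receptors (right). Symbols are the 3 untreated libraries, black ticks the means, the dotted line 1 TPM, and 0 is drawn at 0.01. CXCL8 and CXCL1 lie at 1093 and 888 TPM in the panel of ligands, while CXCR2 and CXCR1 lie below 1 TPM in the panel of receptors.

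Receptor tyrosine kinases spanned a wide range. Of 57 measured, 31 reached 1 TPM (54.4%, against 69% of all genes), 18 reached 10 and 1 reached 100. ERBB3, which needs a partner to signal, was highest at 199, 199 and 189 TPM (196 ± 5.71), 1.97 ± 0.132 times AXL. AXL was separated from DDR1, a collagen receptor, at 80.2 ± 3.01. From DDR1 down, EPHA2 (75.5 ± 19.6 TPM), MET (62.5 ± 8.56), EPHA3 (61.4 ± 5.3), RYK (56.9 ± 5.73) and IGF1R (55.8 ± 4.75) each overlapped with the one before it, and IGF1R was separated from EPHB4, the next in order. ERBB2, the usual partner of ERBB3, had 29.3, 29 and 29.3 TPM (29.2 ± 0.155), EGFR 9.21 TPM and ERBB4 3 counts in all. ERBB3 was 22.1 ± 5.83 times as high as EGFR. PDGFRB had 4.83 ± 0.22 TPM and PDGFRA 1.9 ± 0.403, MUSK and EPHA1 had 0 counts, and 26 of the 57 were below 1 TPM.

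Among growth factors TGFA and INHBA were highest. TGFA, a ligand of EGFR, had 465, 456 and 499 TPM (473 ± 23) and INHBA, the subunit of activin A, 379, 478 and 393 TPM (417 ± 53.5). The pair overlapped. AREG, another ligand of EGFR, had 75.8, 42.5 and 50.4 TPM (56.2 ± 17.4), so that TGFA was 8.93 ± 2.45 times as high, while EREG had 0.18 ± 0.125 TPM and EGF 0.497 ± 0.152. Of the ligands of ERBB3, NRG2 had 4.93 ± 1.08 TPM and NRG1 1.33 ± 0.124. For AXL, GAS6 had 13.7 ± 0.763 TPM and PROS1 9.66 ± 0.336. HGF, the ligand of MET, had 0.923 ± 0.0473 TPM, and IGF1 and IGF2, ligands of IGF1R, 0.0167 ± 0.0153 and 0.297 ± 0.127. MDK (midkine) had 261 ± 30.8 TPM, TGFB1 151 ± 11 and VEGFA 60.7 ± 2.49. Of 69 growth factors 46 (66.7%, against 69% of all genes) reached 1 TPM and 27 reached 10.

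**Figure D4:**
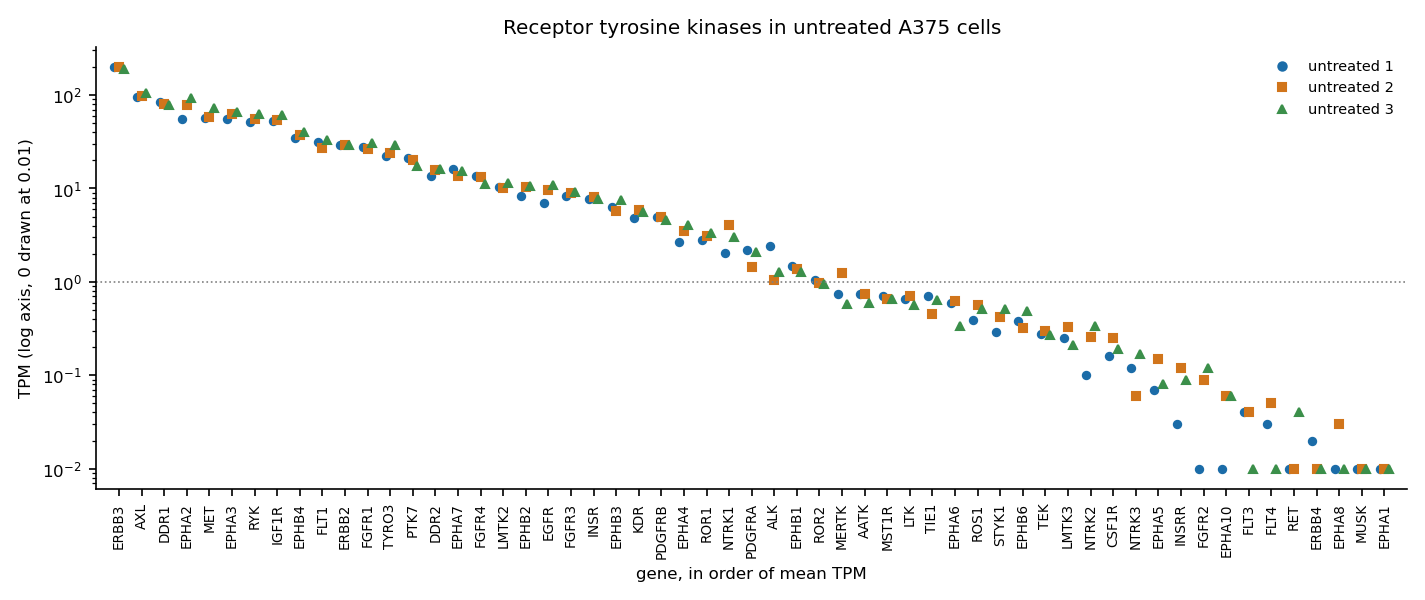
TPM on a log axis of 57 receptor tyrosine kinases, in order of their mean. Symbols are the 3 untreated libraries, the dotted line marks 1 TPM, and 0 is drawn at 0.01. ERBB3 (196 TPM) and AXL (99.6 TPM) stand clear of the receptors below them, and 26 receptors lie below the line.

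Genes of class II antigen presentation, which in most tissues are restricted to immune cells, were present. CD74, the invariant chain, had 2868, 3036 and 2923 TPM (2942 ± 85.9), rank 50 of all genes. HLA-DRA had 393, 409 and 459.6 TPM (420.4 ± 34.9), HLA-DPA1 194 ± 11.2 and HLA-DRB1 159.6 ± 11.5, each separated from the next. CIITA, the coactivator of the class II genes, had 14.3, 11.9 and 15.4 TPM (13.8 ± 1.82). HLA-DMA, of peptide loading, had 45.8 ± 9 TPM. Of 15 class II genes 13 (86.7%, against 69% of all genes) reached 1 TPM, the exceptions being HLA-DOB (0.693 ± 0.185 TPM) and HLA-DRB5 (0 counts). PTPRC, as given above, had 0 counts. HLA genes resemble each other and vary between people, so the values of single members are uncertain.

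Class I genes were high. B2M, the light chain, had 1789.7, 1647 and 1577 TPM (1672 ± 108), HLA-B 612 ± 98.7 and HLA-C 381 ± 24.3. The peptide transporter genes TAP1 and TAP2 had 37 ± 3.41 and 32.3 ± 5.01 TPM. HLA-B was lowest in replicate 3 and highest in replicate 1 (713, 608 and 516 TPM). Of 22 class I genes 21 (95.5%, against 69% of all genes) reached 1 TPM, and HLA-G had 0 counts. Among surface ligands that meet immune cells, CD276 (B7-H3) had 133, 149.8 and 149.5 TPM (144 ± 9.4) and CD274 (PD-L1) 3.77, 2.16 and 3.29 TPM (3.07 ± 0.827), a ratio of 50.1 ± 17.4. LGALS1 (galectin-1) led this list at 2836 ± 216 TPM, ahead of CD55, a complement inhibitor, at 479 ± 33.2. In it 23 of 32 (71.9%, against 69% of all genes) reached 1 TPM.

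Of 36 interferon-stimulated genes 30 (83.3%, against 69% of all genes) reached 1 TPM, and IFITM3 (705 ± 58.9 TPM) and ISG20 (140 ± 18.6 TPM) reached 100. The median of the list was 10.4 TPM, against 8.97 over all genes. STING1, the adaptor of the cytosolic DNA response, had 38.8, 36 and 35.1 TPM (36.6 ± 1.94), whereas CGAS, the DNA sensor upstream of it, had 0.0233 ± 0.0404 TPM.

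Cancer-testis antigens, which in the adult are normally limited to germ cells, numbered 44 in the table, of which 28 (63.6%, against 69% of all genes) reached 1 TPM and 10 reached 100. MAGEA4 had 603, 503 and 564 TPM (557 ± 50.4) and PAGE5 562, 533 and 531 TPM (542 ± 17.5), which were not separated. PRAME had 217, 221 and 202 TPM (213 ± 9.94). MAGEA4 was 4.09 ± 0.0321 times as high as MAGEA3. XAGE1A and XAGE1B had identical values (295 ± 19.3 TPM each), as did CTAG1A and CTAG1B (NY-ESO-1, 72.1 ± 6.08 TPM each), and reads of such near-identical copies cannot be told apart. Values of single MAGEA and GAGE members are uncertain in the same way.

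All 28 proliferation genes were at or above 10 TPM, against 8909 of all 18430 genes, and 15 were at or above 100. UBE2C, of the ubiquitin ligase that ends mitosis, had 454, 468 and 569 TPM (497 ± 62.7), CDC20 271 ± 32.6 and PCNA, the DNA polymerase clamp, 267 ± 52.5, while MKI67 had 88.4 ± 10.7. Of the G1 genes CCND1 led. CCND3 had 43.1 ± 6.58 TPM, so that CCND1 was 8.6 ± 1.01 times as high, and CCND2 had 0 counts. CDK4 had 236 ± 11.8 TPM, 8.75 ± 2.29 times CDK6. CDKN1A (p21) was high at 339, 269.7 and 300.1 TPM (303 ± 34.5). On chromosome 9, MTAP had 156, 165 and 168 TPM (163 ± 6.38), its neighbour CDKN2A (p16 and p14ARF) 7.71, 9.89 and 10.6 TPM (9.39 ± 1.49) and CDKN2B (p15) 6 counts in all. TERT, the catalytic subunit of telomerase, had 1.3, 1.82 and 1.33 TPM (1.48 ± 0.292). RB1, the G1 gatekeeper, had 62.5 ± 6.23 TPM.

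In the BCL2 family MCL1, a survival protein, was highest at 373, 465 and 443 TPM (427 ± 48.1), 9.79 ± 1.59 times BCL2L1 (BCL-XL, 43.8 ± 2.34 TPM). BCL2 had 1.38, 1.39 and 1.98 TPM (1.58 ± 0.344). The melanocyte-linked member BCL2A1 had 49.9 ± 7.16 TPM and overlapped with PMAIP1 (NOXA, 45.8 ± 6.76 TPM). Of the effectors BAX had 193 ± 20 TPM, 7.81 ± 0.912 times BAK1. BAD, a BH3-only protein, had 69.8 ± 0.615 TPM, and BCL2L11 (BIM) 5.77 ± 0.269. In all 17 of 20 (85%, against 69% of all genes) reached 1 TPM.

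Every one of the 26 glycolysis and lactate genes was at or above 1 TPM, against 69% of all genes, with a median of 223 TPM. The 17 enzymes from hexokinase to lactate dehydrogenase made up 3.72%, 4.05% and 3.7% of all TPM. After GAPDH and ENO1 came PKM (3058 ± 134 TPM), ALDOA, and LDHA (2397 ± 77.4 TPM), which was 2.49 ± 0.183 times LDHB. HK1 was 3.55 ± 0.788 times HK2 (161 ± 15.5 and 47.6 ± 14.6 TPM). The glucose transporter SLC2A1 had 114, 127 and 172 TPM (138 ± 30.3) and was highest in replicate 3. Of the lactate transporters SLC16A1 had 98.3 ± 10.5 TPM and SLC16A3 21.6 ± 2.41.

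Inhibitors led the lists of matrix and plasminogen proteases. TIMP1 had 3725, 2742 and 3069 TPM (3179 ± 501) and TIMP3 523 ± 60.7. MMP2 and MMP14, the membrane protease that activates it, overlapped at 169 ± 21 and 142 ± 5.06 TPM. MMP9 had 40.2 ± 9.69 TPM, MMP1 28 ± 11.1 and MMP3 5 counts in all. In the plasminogen system, which SERPINE2 led, the urokinase receptor PLAUR had 196, 197 and 202 TPM (198 ± 3.33) and the tissue activator PLAT 126 ± 17.4, but urokinase itself, PLAU, had 0.21, 0.5 and 0.22 TPM (0.31 ± 0.165).

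Among matrix genes SPARC and TNC were followed by COL9A3 at 638 ± 39.5 TPM and by COL4A2 and LAMB1, of the basement membrane, at 407 ± 24.9 and 363 ± 25.5 TPM. The fibrillar collagens listed differed: COL5A2 had 91.4 ± 5.59 TPM and COL5A1 21.2 ± 2.53. By contrast COL1A1 had 1.14 ± 0.204 TPM, COL11A1 0.103 ± 0.0252, COL1A2 0.0133 ± 0.0115 and COL3A1 0.02, 0.05 and 1.51 TPM. COL3A1 was thus near 0 in 2 libraries and above 1 TPM in replicate 3. Of 37 matrix genes 32 (86.5%, against 69% of all genes) reached 1 TPM. The integrins ITGA1 (372 ± 23.9 TPM) and ITGA5 (356 ± 30.9) overlapped, followed by ITGB1, the subunit they share, at 304 ± 12.9. ITGB3, of the vitronectin receptor, had 258 ± 11 TPM and its partner ITGAV 67.4 ± 5.37. The leukocyte integrin ITGAL had 0 counts, and 17 of 26 integrins (65.4%) reached 1 TPM. The melanoma surface antigens CSPG4 and MCAM had 346 ± 40 and 199 ± 6.75 TPM, and L1CAM 61.7 ± 11.3. Of 27 adhesion and surface genes 19 (70.4%) reached 1 TPM.

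Of the cytoskeletal and S100 genes, VIM was 7.85 ± 1.01 times LMNA, and KRT18, a keratin of simple epithelia, stood at 360.1, 409.8 and 386 TPM (385 ± 24.9), 14.5 ± 1.27 times its usual partner KRT8 (26.8 ± 3.18 TPM). NES (nestin), of neural progenitors, had 81.9 ± 0.613 TPM. S100A6 was 2.77 ± 0.121 times S100A10, and 12 of 16 S100 genes (75%, against 69% of all genes) reached 1 TPM. Of 15 transporters linked to drug efflux or platinum uptake, 12 (80%) reached 1 TPM and none reached 100. ABCC1 was highest at 29.5, 36 and 37.4 TPM (34.3 ± 4.25), separated from ABCC2 (18.7 ± 4.03 TPM). The copper and platinum importer SLC31A1 had 18.4 ± 0.887 TPM, the efflux pump ABCB1 1.24 ± 0.279 and ABCG2 1.18 ± 0.535, and ABCB5 was at 0.0133 ± 0.0231 TPM.

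HOX genes, which record position along the body axis, numbered 39 in the table, of which 32 (82.1%, against 69% of all genes) reached 1 TPM and 18 reached 10. Their median was 8.98 TPM, against 8.97 over all genes. HOXC10 was highest at 54.9, 62.1 and 68.1 TPM (61.7 ± 6.6) and overlapped with HOXB2 at 58.2, 47.3 and 62 TPM (55.8 ± 7.64). HOXB7 (39.3 ± 5.14 TPM), HOXC6 (36.4 ± 2.94) and HOXC4 (32.2 ± 3.05) followed. The clusters differed in their sums: HOXC 199 ± 14.7 TPM over 9 genes, HOXB 184 ± 16.5 over 10, HOXA 79.7 ± 3.54 over 11 and HOXD 26 ± 2.58 over 9. The sums of HOXC and HOXB overlapped between libraries, and those of HOXA and HOXD were separated from all others. No HOXD gene reached 10 TPM, and HOXD12 had 0 counts.

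**Figure D5:**
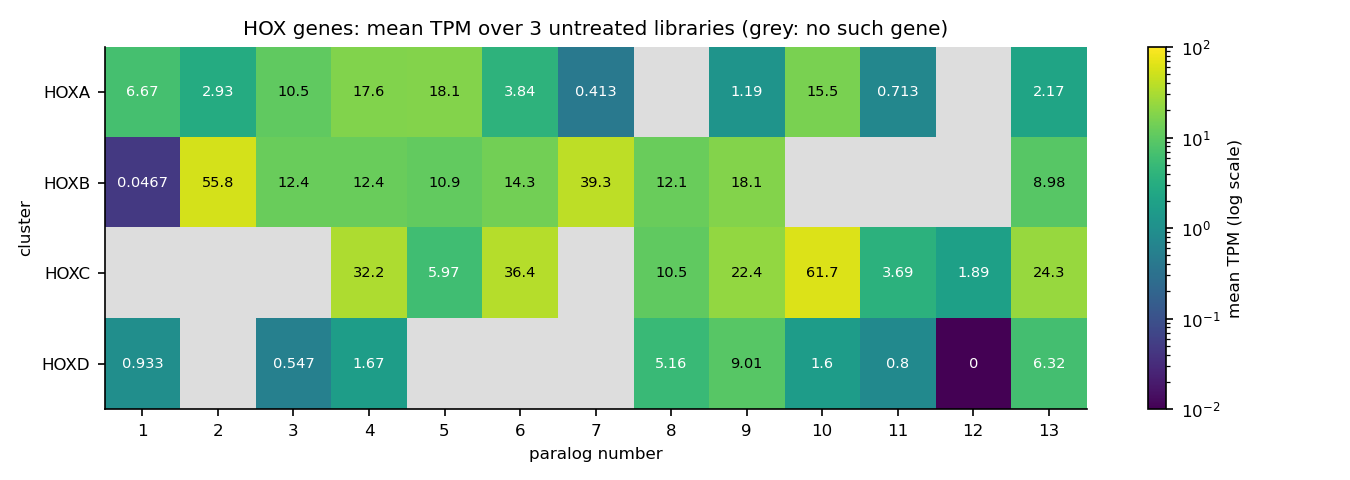
Mean TPM over the 3 untreated libraries for each HOX gene, by cluster (rows) and paralog number (columns), on a log color scale. Grey cells are positions at which the cluster has no gene. The highest cells are HOXC10 (61.7 TPM) and HOXB2 (55.8 TPM), and no HOXD cell reaches 10.

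Of 20 SOX genes listed, 5 had no value, and of the 15 measured 10 (66.7%, against 69% of all genes) reached 1 TPM. SOX10 was 6.76 ± 0.376 times SOX5, and SOX2, a factor of neural progenitors, had 13.2, 15.2 and 11.8 TPM (13.4 ± 1.72). Of 9 PAX genes only PAX3, PAX9 (5.46 ± 0.566 TPM) and PAX8 (3.41 ± 0.199 TPM) did. All 18 AP-1 and related genes reached 1 TPM, led by ATF4, of the integrated stress response, at 364 ± 55 and JUNB at 336 ± 21.1, which overlapped. JUNB was 11.1 ± 3.15 times JUN. FOSL1 (FRA-1) had 236 ± 29.4 TPM and FOS 233 ± 47.4, also overlapping.

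The 3 libraries resembled each other, with Pearson's r of 0.992 to 0.993 for log2(TPM + 1) across the 8909 genes at or above 10 TPM, genes not being independent replicates. Among these genes the median CV between libraries was 7.13%, and 257 genes (2.88%) had a CV above 20%. The counting CV, computed from the mean count of each gene, had a median of 3.45%. These medians differ in kind, since only the CV between libraries is estimated from 3 values per gene. The spread was widest, in median, for cytokines (23.1% over 12 genes) and chemokines (19.7% over 8), and was 5.94% for the 80 ribosomal protein genes. Among the 12 genes with the largest CV, ANGPTL4, a lipase inhibitor induced by hypoxia and fasting, had 11, 29.1 and 50.3 TPM (CV 65.3%). CHAC1, a target of the integrated stress response, had 18, 13.8 and 3.22 TPM (CV 65.2%) and MMP10 24, 7.22 and 11.2 TPM (CV 61.9%). TXNIP, which rises with glucose, had 75.4, 107 and 24.1 TPM (CV 60.7%), ATF3 10.3, 30.6 and 17.6 TPM (CV 52.7%) and LCN2, a secreted iron-binding protein, 552, 417 and 202 TPM (CV 45.2%). The others were FOSL2, INSIG2, RBM14-RBM4, CSF2, DIPK2A and HAS2, and no single library was the highest for all 12.

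Which library was highest depended on the gene group. By TPM, replicate 3 was highest for 51.5% of the 8909 genes, replicate 1 for 24.6% and replicate 2 for 23.9%. With CPM scaled by TMM factors, which set the typical gene level rather than the total equal between libraries, the shares were 35.6%, 36.5% and 27.9%. The order of the libraries over all genes therefore changed with the scaling. Of the 28 proliferation genes, 24 were highest in replicate 3 and 0 in replicate 2 by TPM, and 21 and 0 with TMM. Of the 8 chemokines at or above 10 TPM, 7 were highest in replicate 2 by either scaling. Ribosomal protein genes ran the other way, with 75 of 80 lowest in replicate 3 by TPM and 77 with TMM. No glycolysis gene of 25 was highest in replicate 1 by TPM, and 1 was with TMM. What set these differences was not tested.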

How the data were processed

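Total RNA of A375 cells was sequenced in 3 untreated libraries. Per the labels' protocols, cDNA was made with random hexamers, amplified by PCR and circularised; strand was not stated. HISAT2 2.0.4 and hg38 are named in the submitters' processing notes, while for the counting tool and the gene annotation the record is silent: not given in the sources used here. A single table was deposited by the authors, with estimated counts, TPM and FPKM per gene; 13.6 to 14.1% of the count values were not whole (tolerance 1e-06). FPKM deposited by the authors served 1 alternative only. Another 12 columns, TPM and FPKM of treated libraries, were not used, and treated counts served only to learn why genes at 0 are in the table.

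Of 18430 rows, 18153 matched a RefSeq identifier (GRCh38.p14), and 26 symbols that had turned into dates were replaced. Means, SDs and CVs were computed over 3 libraries on TPM, with no test, since there is 1 group. Gene lists (41) were written by hand, and members and lists were chosen with earlier results of these data known. Named genes are the 25 most abundant, the 6 highest of each list and further members where a family is ordered, list members below 1 TPM, and the 12 with the largest CV at or above 10 TPM. Alternatives were other TPM thresholds, FPKM, a count minimum, counts in place of TPM, TMM scaling and leaving out each library. The spread statistic was tested on simulated data. Python 3.11.15, pandas 2.3.3, numpy 2.4.6, matplotlib 3.10.9, R 4.3.3 and edgeR 4.0.16 (TMM factors only) were used. Values of a few listed genes are not reported here.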

Additional observations from a re-analysis of the deposited data

How the results depend on the processing

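The number of genes at or above 1 TPM was 12721 and lay between 10498 and 13518 under the other thresholds, and between 12703 and 12759 with 1 library left out. The genes at 0 counts in all untreated libraries numbered 1256, 2740 where up to 3 summed counts were taken as none, and 1582 to 1635 with 1 library left out. The share of TPM in the 100 most abundant genes was 35.1%, 34.6 to 36.0% with 1 library left out, 19.0% by counts, which do not correct for length, and 24.1% without ribosomal protein genes. The spread between untreated libraries, as a median CV, was 7.13%, 6.71% with TMM scaling, 8.34% at or above 1 TPM and 5.27 to 6.25% with 1 library left out. Each CV of that last range rests on 2 libraries, so it cannot be compared directly with the 7.13% over 3. At a threshold of 5 TPM, cytokines fell from 27 to 15 genes, chemokines from 13 to 8, chemokine receptors from 1 to 0, and markers of melanocytes from 5 to 3, of keratinocytes and of endothelium from 4 to 2 and of fibroblasts from 4 to 0. At 0.5 TPM fibroblast markers rose from 4 to 7 and erythroid markers from 0 to 1, and with FPKM of at least 1 fibroblast markers numbered 2 and melanocyte markers 3. Low genes are limited by depth: at 1 count a gene cannot be ordered against its neighbours. No paired analysis was possible because the values describe 1 group and come from no test.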

Other observations

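Gene families defined by their symbols and chosen after levels were seen, some sharing members with the lists above, differed widely in how many members reached 1 TPM. Over all genes 69% did. Of 123 olfactory receptors, the odorant sensors of the nose, 7 did and 55 had 0 counts, the highest being OR51B4 at 4.68 TPM. None of 17 keratin-associated proteins, which are made in the hair shaft, did, and 12 had 0 counts. Of 39 keratins 11 did, and KRT18 at 385 TPM was followed by KRT6B at 34.4. Of 11 UDP-glucuronosyltransferases, which conjugate drugs and bilirubin, 2 did, and of 52 cytochromes P450 18 did, led by CYP51A1 of cholesterol synthesis at 30.9 TPM.

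Families of general cell function were present nearly in full. All 77 mitochondrial ribosomal protein genes (median 66 TPM) and all 12 RNA polymerase II subunits (median 100 TPM) reached 1 TPM. So did 37 of 38 proteasome subunits (median 151 TPM, highest PSMB4 at 1051) and 45 of 46 complex I genes (median 103 TPM). Of 475 genes named ZNF, mostly zinc finger transcription factors, 420 reached 1 TPM, with a median of 5.85 TPM. Of 65 protocadherins, adhesion proteins best known from neurons, 44 did, led by PCDH1 at 61.4 TPM.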
